A study of Homo sapiens with 12 samples.

Results

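What 5-azacytidine changed in cells that were given APR-246 as well was read from 6 of the 12 arrays of this study, the 3 labelled APR-AZA and the 3 labelled APR. SKM1 is an established human myeloid leukaemia cell line. The APR cells received APR-246 at its IC50, the APR-AZA cells received 5-azacytidine and APR-246 together, each at its IC50, and RNA was taken after 18 h. The other 6 arrays, labelled AZA (5-azacytidine at its IC50, without APR-246) and NT (no drug), show what 5-azacytidine changed without APR-246. All 4 groups are the same cell line at the same time point, with 3 arrays each, and neither drug's concentration is given in the sources used here. Of the 29413 rows of the table, 28125 genes with 1 symbol were compared, by limma in a fit over all 12 arrays, and a gene was called at a Benjamini-Hochberg adjusted p under 0.05 over all 28125. Nothing in the labels ties the 3 arrays of a group to separate cultures, and the p-values therefore measure only the spread between arrays, which may be technical.

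5-Azacytidine is a cytidine analogue that cells build into RNA and, after reduction, into DNA, where it traps DNA methyltransferases. It is used against myelodysplastic syndromes and acute myeloid leukaemia. APR-246 is converted to a product that binds thiols of proteins and of glutathione. ATF4, a transcription factor made when translation initiation is slowed by stress, switches on genes that import and make amino acids and charge tRNAs. NRF2, a transcription factor that is set free when thiols of its partner KEAP1 are modified, switches on genes that handle oxidants, and MYC drives the genes that build ribosomes.

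Adding 5-azacytidine to APR-246 changed 5813 genes, 20.7% of those tested. Of these, 2659 (9.45% of the genes tested) were higher and 3154 (11.2%) lower in APR-AZA than in APR. At least 2-fold changes were called in 853 genes, 464 higher and 389 lower. The largest changes were mostly increases, with 33 genes higher by at least 8-fold and 3 lower by as much. The 3 APR-AZA arrays all lay on one side of the 3 APR arrays in 5777 of the 5813 called genes and overlapped them in 36. The median log2 change over all genes was 0.001, and the median size of the change among the called genes was 0.55 on the log2 scale with a median standard error of 0.107 over all genes. Across the table, APR arrays correlated with each other at Pearson's r of 0.994 to 0.995, APR-AZA arrays with each other at 0.995 to 0.996, and APR-AZA with APR arrays at 0.980 to 0.983.

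The label was checked against markers of cell types. The mean log2 signal of 9 myeloid markers was 9.80 to 9.90 over the APR arrays and 9.81 to 9.87 over the APR-AZA arrays. These means cover changes in opposite directions, since 4 of the 9 were called higher and 4 lower. The granule enzyme MPO was 2.22-fold and the transcription factor CEBPA 1.43-fold lower, the latter not called without APR replicate 3, while the kinase LYN was 1.79-fold and the transcription factor SPI1 1.57-fold higher. The mean of 9 T and B cell markers was 4.30 to 4.40 and 4.40 to 4.52, and that of 7 erythroid and platelet markers 4.07 to 4.10 and 3.99 to 4.10. Of the T and B cell markers CD3E, a chain of the T cell receptor complex, was called higher (log2 0.34 ± 0.10, SE, adjusted p = 0.0293), a call lost with median centring and without APR replicate 2 or 3 or APR-AZA replicate 1 or 2. For 11 markers of epithelium and stroma the mean was 5.19 to 5.38 with APR and 5.4 to 5.51 with APR-AZA, so the arrays of the groups did not overlap, and KRT19 and COL1A2 were called higher, the collagen gene COL1A2 not without APR replicate 1 or 3 or APR-AZA replicate 2 or 3. KRT19, a keratin, had log2 signals of 4.72, 4.95 and 4.18 with APR and 5.94, 5.76 and 5.12 with APR-AZA. The brightest member of the epithelium and stroma list averaged 9.62 with APR and 9.33 with APR-AZA, so not all of its members were dim. In AZA against NT 0 members of that list were called. The part of these cell type markers in the other results was not tested.

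The largest changes are given in order of their measured size. No detection call per gene was used here, and array medians over the genes tested were 4.71 to 4.79 on the log2 scale. The APR mean lay below 4.71 in 8 of the 15 largest increases (ORM1, BET1-AS1, C5AR1, PPP1R17, DLGAP1-AS2, P3H2, NMRAL2P and RND3), and CLDN1 stood close to the medians. The APR-AZA mean did so in 3 of the 15 largest decreases (BTLA, LOC107985743 and STAR). A dimmer side that low is not shown to lie above background, so the folds of these genes and their order rest on where the array's low end lies and are not exact. The same limit holds for the folds of other named genes with a group mean below 4.71. Among them are TP53INP1 (4.19 with APR), GABARAPL1 (3.82), ATF3 (4.08), BCL2A1 (4.53), KRT19 (4.62), MIR628 (3.80) and EGLN3 (4.53 with APR-AZA).

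CLDN1, which encodes the tight junction protein claudin-1, had the largest measured change. Its log2 signal was 4.97, 4.73 and 4.73 on the APR arrays and 10.75, 11.05 and 11.08 on the APR-AZA arrays, a 71.0-fold increase (log2 6.15 ± 0.15, SE, adjusted p = 9.48e-11). The groups were far apart, and the arrays of each group lay close together. DDIT4, a stress-induced inhibitor of the growth kinase complex mTORC1, stood at 5.18, 6.0 and 5.74 with APR and at 10.77, 10.81 and 10.75 with APR-AZA, 35.2-fold higher. Its APR arrays were spread more widely than its APR-AZA arrays, and the groups did not overlap.

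The other 13 of the 15 largest increases ran from 13.8-fold to 33.0-fold. ORM1, an acute-phase plasma protein, was 33.0-fold higher, and its close copy ORM2 may share its probes. Surface proteins of myeloid cells were among them, namely CD101 (19.2-fold), the complement receptor C5AR1 (18.6-fold) and the integrin subunit ITGAX, also known as CD11c (14.1-fold). Secreted or matrix-related products included thrombospondin-1, encoded by THBS1 (15.2-fold), and the collagen prolyl hydroxylase P3H2 (15.3-fold). The calcium-binding S100P (16.9-fold), the phosphatase inhibitor PPP1R17 (16.7-fold), RND3 (14.4-fold) and CHAC1, an enzyme that cleaves glutathione (13.8-fold), rose as well. The remaining genes were noncoding, the antisense RNAs BET1-AS1 (21.2-fold) and DLGAP1-AS2 (15.7-fold) and the transcribed pseudogene NMRAL2P (14.4-fold).

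BTLA, an inhibitory receptor of the immunoglobulin family on lymphocytes and some myeloid cells, had the largest measured decrease. Its log2 signal was 7.96, 7.68 and 7.87 with APR and 4.10, 3.94 and 4.07 with APR-AZA, 13.9-fold lower (log2 -3.80 ± 0.13, SE, adjusted p = 6.07e-10). MYB, a transcription factor that keeps blood progenitors dividing and immature, stood at 10.17, 10.06 and 9.94 with APR and at 7.10, 6.93 and 6.70 with APR-AZA, 8.86-fold lower. In both genes every APR array lay well above every APR-AZA array.

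Several of the other large decreases were of receptors. They were P2RY8 (7.41-fold lower), the relaxin receptor RXFP1 (7.08-fold), the monocyte chemokine receptor CCR2 (6.21-fold), the GABA receptor subunit GABRA4 (5.13-fold) and the orphan receptor GPR141 (5.10-fold). TNFSF10, the death ligand TRAIL, was 7.38-fold lower. The neutrophil proteases ELANE and PRTN3 were 6.46-fold and 5.24-fold lower. The mitochondrial proteins MTARC2 and STAR, the latter a carrier of cholesterol into mitochondria, were 5.45-fold and 5.17-fold lower, and PLPPR3 was 5.06-fold lower. The 2 uncharacterised loci LOC105375878 and LOC107985743 were 11.8-fold and 6.65-fold lower. LOC107985743 had the widest error of these 15 (log2 -2.73 ± 0.45, SE, adjusted p = 0.000572).

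**Figure D1:**
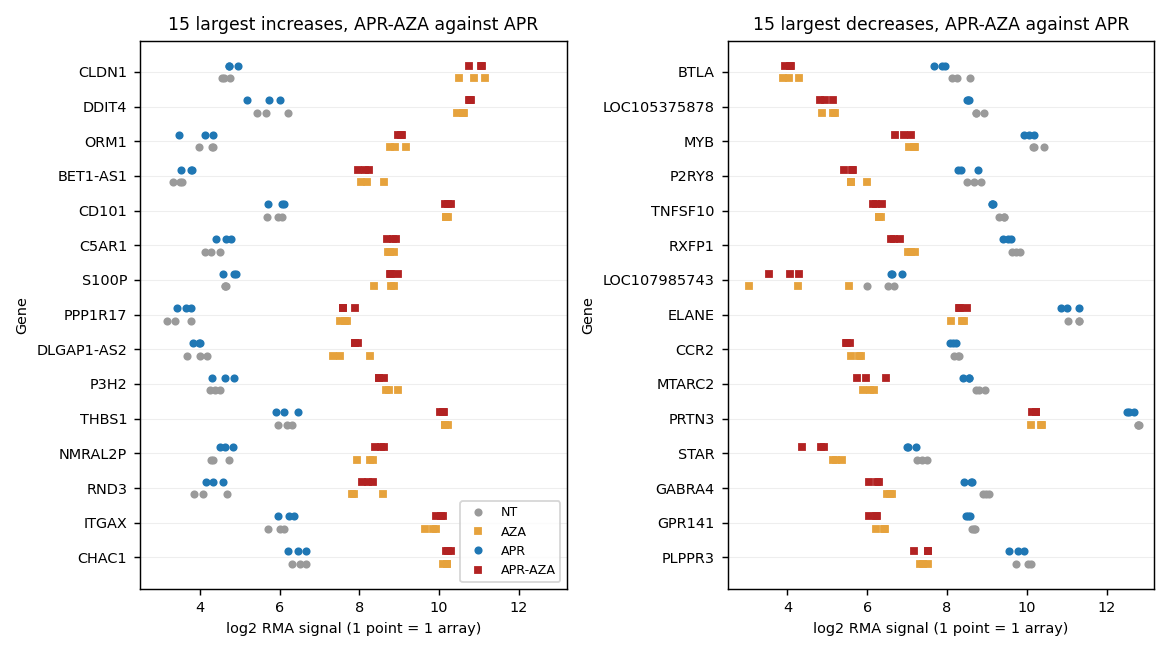
Log2 RMA signal (x axis) of the genes with the 15 largest increases (left) and 15 largest decreases (right) between APR and APR-AZA. Each point is 1 array, blue for APR, red for APR-AZA, grey for NT and orange for AZA, and in each row the red points lie clear of the blue ones, with CLDN1 moving from 4.73 to 4.97 up to 10.75 to 11.08.

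Gene groups are described by how many of their measured members were called, beside the 9.45% of all genes called higher and the 11.2% called lower. The lists are textbook groups chosen with earlier results of these data known, and a gene can stand on several. Their counts therefore describe these data and do not show independently that a group moved.

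The list of ATF4 targets and amino acid response genes rose nearly without exception. Of its 38 measured members 36 were higher and 1 lower, with a median log2 change of 1.55 against 0.001 over all genes. PYCR1, an enzyme of proline synthesis, stood at 0.27 ± 0.12 (log2, SE) and was not called, and ALDH18A1, which makes the precursor of proline, was lower by 0.63 on the log2 scale. SLC7A11, the cystine importer that feeds glutathione synthesis, had log2 signals of 8.28, 8.37 and 8.28 with APR and 11.89, 11.96 and 11.95 with APR-AZA, 12.3-fold higher (adjusted p = 9.48e-11). Its 6 arrays fell into 2 tight groups more than 3 log2 units apart. CHAC1, named above among the largest increases, stood at 6.22, 6.67 and 6.47 and at 10.23, 10.17 and 10.30. The mitochondrial folate enzyme ALDH1L2 was 8.92-fold higher. PYCR1 and ALDH18A1 are named here after their values were seen, as the 2 members that were not higher.

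The cytosolic aminoacyl-tRNA synthetases, which join amino acids to their tRNAs, split. Of 19 members 10 were higher and 3 lower, with a median log2 change of 0.52. WARS1, for tryptophan, had log2 signals of 7.64, 7.76 and 7.83 with APR and 10.55, 10.69 and 10.62 with APR-AZA, 7.35-fold higher. Those for cysteine (CARS1), serine (SARS1) and methionine (MARS1) were 3.80-fold, 3.13-fold and 2.96-fold higher. The 3 lower members, chosen after their values were seen, were both subunits of the phenylalanine enzyme, FARSB (log2 -0.70 ± 0.07) and FARSA (-0.44 ± 0.12), a call lost without APR replicate 3, and the lysine enzyme KARS1 (-0.37 ± 0.08).

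Amino acid response elements hold a core that is read jointly by C/EBP proteins and ATF factors. Windows of 300 bases, from 250 before to 50 after the annotated start of a gene, were searched on both strands for TGATGNAA. It was found in 20% of the promoters on the ATF4 list, 6 of 30, against 3.18% of all 19561 promoters matched. The share was 6.89% among genes that rose at least 2-fold and 2.01% among those that fell at least 2-fold. A match describes letters in the window and is not evidence of binding. The promoters of 3 genes named here whose windows hold the core follow, from RefSeq (GRCh38.p14), each 5′ to 3′ on the strand of its gene with the core in capitals. CHAC1 lies on the plus strand at chr15:40953221-40953520, CARS1 on the minus strand at chr11:3057374-3057673 and SLC3A2, the partner chain of SLC7A11, on the plus strand at chr11:62881449-62881748.
CHAC1: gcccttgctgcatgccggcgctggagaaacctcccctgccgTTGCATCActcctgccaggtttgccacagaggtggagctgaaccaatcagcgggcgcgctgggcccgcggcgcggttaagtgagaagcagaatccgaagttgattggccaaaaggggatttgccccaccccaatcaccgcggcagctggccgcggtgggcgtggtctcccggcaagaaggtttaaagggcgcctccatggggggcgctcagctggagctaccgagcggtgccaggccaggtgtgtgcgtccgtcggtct
CARS1: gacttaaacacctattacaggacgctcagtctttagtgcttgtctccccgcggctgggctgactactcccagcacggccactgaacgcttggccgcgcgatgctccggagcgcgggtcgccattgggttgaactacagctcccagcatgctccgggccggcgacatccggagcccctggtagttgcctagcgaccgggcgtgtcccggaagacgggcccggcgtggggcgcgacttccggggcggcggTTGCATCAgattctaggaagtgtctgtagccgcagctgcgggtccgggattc
SLC3A2: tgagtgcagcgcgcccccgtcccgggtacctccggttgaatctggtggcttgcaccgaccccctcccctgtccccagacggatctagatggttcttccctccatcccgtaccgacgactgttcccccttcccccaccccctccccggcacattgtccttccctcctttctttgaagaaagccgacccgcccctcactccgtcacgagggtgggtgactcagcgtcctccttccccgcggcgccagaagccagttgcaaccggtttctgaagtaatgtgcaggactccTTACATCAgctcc
In CHAC1 the core begins at position -209 relative to the first base of the gene, in CARS1 at -2 and in SLC3A2 at 37. CARS1 stood at 7.77, 7.79 and 7.78 with APR and at 9.73, 9.69 and 9.71 with APR-AZA. SLC3A2 stood at 9.90, 10.20 and 10.16 and at 11.56, 11.69 and 11.65, 2.92-fold higher. In both genes the groups did not overlap.

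Of 31 NRF2 targets 20 rose and 0 fell, with a median log2 change of 0.65. After SLC7A11, which is also on the ATF4 list, the largest increases were in sulfiredoxin, encoded by SRXN1 (4.67-fold), in OSGIN1, an inhibitor of growth under oxidative stress (4.22-fold), and in SQSTM1, the autophagy receptor p62 (3.39-fold). HMOX1, which breaks down haem, is a standard NRF2 readout. Its log2 signals were 5.29, 5.18 and 5.12 with APR and 5.94, 5.84 and 5.82 with APR-AZA, 1.59-fold higher (adjusted p = 0.000434), and its groups did not overlap. In the glutathione and thioredoxin systems, a wider list that shares members with this one, 11 of 39 were higher and 12 lower, with thioredoxin reductase TXNRD1 3.11-fold higher.

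The antioxidant element through which NRF2 acts holds the core TGACNNNGC. It was found on either strand in 21.7% of the promoters on the NRF2 list, 5 of 23, against 14.2% of all promoters and 33.3% of those on the ATF4 list. TXNRD1, which held 2 matches, is printed with both cores in capitals, from the plus strand at chr12:104215529-104215828 (RefSeq, GRCh38.p14).
TXNRD1: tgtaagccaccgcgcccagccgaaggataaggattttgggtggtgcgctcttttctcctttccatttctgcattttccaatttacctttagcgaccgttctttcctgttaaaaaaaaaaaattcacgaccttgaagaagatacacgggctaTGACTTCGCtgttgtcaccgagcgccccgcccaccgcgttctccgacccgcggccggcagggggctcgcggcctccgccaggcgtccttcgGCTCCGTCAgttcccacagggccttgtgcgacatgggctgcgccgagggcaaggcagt
TXNRD1 had log2 signals of 9.49, 9.55 and 9.52 with APR and 11.15, 11.20 and 11.13 with APR-AZA, so that the 3 arrays of each group lay close together and the groups were well apart.

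Other stress groups did not move as one. In the unfolded protein response of the endoplasmic reticulum 7 of 29 members were higher and 7 lower, with EDEM1, which clears misfolded glycoproteins, 2.60-fold higher, the sensor kinase ERN1 2.18-fold higher, and SDF2L1 and DERL3, both of protein quality control, 2.12-fold and 1.95-fold lower. Of 26 heat shock genes 14 fell and 3 (11.5%) rose, the latter a share close to that of all genes. The chaperone HSPA4L was 2.61-fold lower. The inducible chaperone HSPA1A stood at 11.67, 12.11 and 11.92 with APR and at 11.02, 10.95 and 10.95 with APR-AZA, 1.90-fold lower, and HSPA1B, a near-identical copy whose probes may read both, was 1.87-fold lower. HSPA13 was 2.0-fold higher. Among metallothioneins and genes of zinc and iron handling 6 of 16 were lower and 2 (12.5%) higher, the latter close to the 9.45% of all genes. The metallothionein MT2A was 2.67-fold higher and MT1X 1.61-fold lower, in a family whose close copies may share probes. The iron exporter SLC40A1 was 2.59-fold lower.

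Ribosome biogenesis and MYC targets fell as a block. Of 56 members 48 were lower and 0 higher, the other 8 were also below 0 without being called, and the median log2 change was -0.67. UTP20, a factor that processes the small-subunit RNA, had log2 signals of 8.53, 8.41 and 8.63 with APR and 7.08, 7.0 and 6.73 with APR-AZA, 3.0-fold lower (adjusted p = 3.02e-07). WDR3, another small-subunit factor, and the RNA polymerase I subunits POLR1G and POLR1B were 2.54-fold, 2.54-fold and 2.38-fold lower. MYC itself stood at 10.85, 11.01 and 11.07 with APR and at 9.92, 9.86 and 9.81 with APR-AZA, 2.17-fold lower (adjusted p = 8.5e-07). In UTP20 and in MYC no APR-AZA array reached the lowest APR array.

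MYC binds DNA together with MAX at E-boxes, and some partners of MAX oppose it. In the 14 genes of the MAX network 1 was higher and 3 lower. MXD1, which competes with MYC for MAX, stood at 7.66, 7.51 and 7.42 with APR and at 9.32, 9.25 and 9.23 with APR-AZA, 3.34-fold higher. MAX was 1.37-fold lower, and MGA, another MAX partner, stood at -0.26 ± 0.08 (log2, SE, adjusted p = 0.0362), a call lost in the fit of the compared groups alone and without APR replicate 1 or 3 or APR-AZA replicate 1 or 2. The adjusted p of MGA ranged up to 0.143 over the alternatives.

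The E-box CACGTG was found in 35.4% of the promoters on the ribosome biogenesis list, 17 of 48, against 8.12% of all promoters. It was in 16.4% of promoters of genes at least 2-fold lower and in 7.19% of those at least 2-fold higher. Its letters hold a CpG. Protein-coding genes at least 2-fold lower held a median of 26 CpG sites in the promoter, those at least 2-fold higher 24 and all 23. The shares were not adjusted for CpG content or kind of gene, and a match is not evidence of binding. Of the 4 members named here, the windows of UTP20 and POLR1G held the E-box. They are printed with the E-box in capitals (RefSeq, GRCh38.p14), both from the plus strand, UTP20 at chr12:101279855-101280154 and POLR1G at chr19:45406394-45406693.
UTP20: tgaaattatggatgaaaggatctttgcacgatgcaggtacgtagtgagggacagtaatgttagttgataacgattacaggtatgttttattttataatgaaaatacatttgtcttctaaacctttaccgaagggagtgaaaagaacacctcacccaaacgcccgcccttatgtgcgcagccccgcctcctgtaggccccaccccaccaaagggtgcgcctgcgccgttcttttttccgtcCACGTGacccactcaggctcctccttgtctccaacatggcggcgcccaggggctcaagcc
POLR1G: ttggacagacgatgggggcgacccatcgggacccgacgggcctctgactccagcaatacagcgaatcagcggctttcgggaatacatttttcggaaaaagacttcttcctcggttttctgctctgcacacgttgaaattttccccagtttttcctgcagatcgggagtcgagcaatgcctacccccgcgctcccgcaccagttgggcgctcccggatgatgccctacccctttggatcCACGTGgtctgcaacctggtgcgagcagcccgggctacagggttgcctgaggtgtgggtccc
In UTP20 the E-box begins at position -10 relative to the first base of the gene and in POLR1G at -12. POLR1G had log2 signals of 7.45, 7.29 and 7.65 with APR and 6.08, 6.20 and 6.09 with APR-AZA, with no overlap. The spread of POLR1G over the APR arrays was wider than over the APR-AZA arrays.

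**Figure D2:**
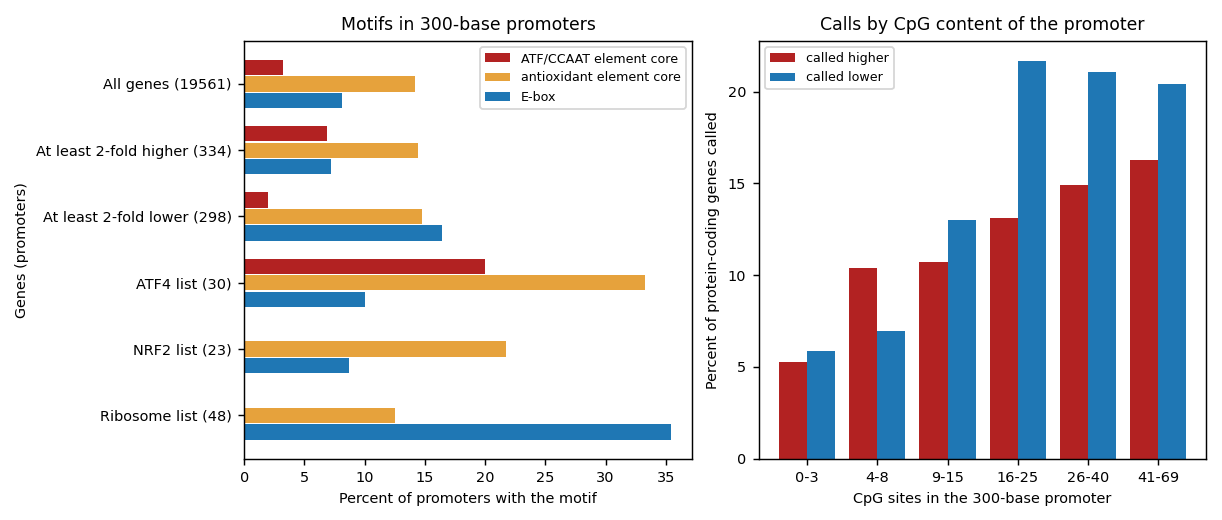
Left, percent of 300-base promoters (x axis) that hold each of 3 motifs, for all genes, for genes at least 2-fold changed in APR-AZA against APR and for 3 gene lists, with the number of promoters in brackets. The E-box stands at 35.4% on the ribosome list and the ATF/CCAAT element core at 20% on the ATF4 list, against 8.12% and 3.18% of all promoters. Right, percent of protein-coding genes called higher or lower (y axis) by the number of CpG sites in the promoter.

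Cholesterol synthesis and uptake fell in 14 of 20 members and rose in 1. DHCR7, the last enzyme on one branch to cholesterol, had log2 signals of 8.92, 9.07 and 9.34 with APR and 7.73, 7.52 and 7.35 with APR-AZA, 2.99-fold lower, with a gap of more than 1 log2 unit between the groups. MSMO1, CYP51A1 and HMGCS1 were 2.39-fold, 2.10-fold and 2.03-fold lower. The 1 higher member, chosen after its values were seen, was SREBF2, the transcription factor of this pathway, at 0.27 ± 0.09 (log2, SE, adjusted p = 0.0439). That call was lost with median centring, in the fit of the compared groups alone, without APR replicate 1 or 2 and without any 1 APR-AZA array.

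Oxidative phosphorylation genes fell in 21 of 38 members and rose in 0, with ATP synthase subunits leading, ATP5MC1 2.53-fold, ATP5F1D 1.96-fold and ATP5MC3 1.79-fold lower. Proteasome subunits fell in 10 of 26 and rose in 0, by smaller amounts, with PSMA2 1.44-fold and PSMD12 1.38-fold lower. In glycolysis and the hypoxia response 5 of 30 were higher and 11 lower. VEGFA, a growth factor of blood vessels that ATF4 also induces, was 3.08-fold higher, and the vasodilator peptide gene ADM 2.44-fold higher, whereas EGLN3, an oxygen-sensing hydroxylase, was 2.65-fold lower.

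Autophagy and lysosome genes rose in 19 of 41 members and fell in 3. After SQSTM1 the largest increases were in GABARAPL1, a protein of the autophagosome membrane (2.47-fold), TFE3, a transcription factor of lysosome genes (2.30-fold), and the receptor CALCOCO2 (2.25-fold). Among 16 brakes on mTORC1, 2 (12.5%) were higher and 2 (12.5%) lower, close to the 9.45% and 11.2% of all genes. SESN2, a leucine sensor that ATF4 induces, stood at 6.64, 6.71 and 6.83 with APR and at 9.70, 9.50 and 9.54 with APR-AZA, 7.24-fold higher, while its relatives SESN3 and SESN1 were 2.55-fold and 1.38-fold lower. DDIT4, named first above, is the other higher member.

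Among 35 members of the list of NF-kB targets and inflammatory cytokines, 18 were higher, 1 lower and 16 not called, with a median log2 change of 0.43. CXCL8, a chemokine that draws neutrophils, stood at 9.21, 8.91 and 8.65 with APR and at 11.82, 11.83 and 11.88 with APR-AZA, 7.57-fold higher (adjusted p = 6.58e-09). The cytokine genes IL1B and TNF were 9.65-fold and 4.26-fold higher, and the signalling adaptor TRAF1 5.88-fold. The 1 lower member, chosen after its values were seen, was the chemokine CCL20, with log2 signals of 8.74, 7.77 and 7.70 with APR and 7.18, 7.11 and 7.27 with APR-AZA. The first APR array stood apart for CCL20, whose adjusted p was 0.0494 and whose call was also lost without moderation and with quantile normalization repeated, and without APR replicate 1 or any 1 APR-AZA array the list had 0 lower members.

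Immediate early factors, which respond to signals within minutes, rose in 13 of 24 members and fell in 2. JUN, a subunit of the AP-1 factor, stood at 8.08, 8.17 and 8.18 and at 9.98, 9.90 and 10.02, 3.54-fold higher. KLF6 and JUND were 3.36-fold and 3.04-fold higher. ATF3, which is induced by stress and also stands on the ATF4 list, was 4.41-fold higher with a wide spread among the APR arrays, at 4.78, 3.23 and 4.23. Brakes on MAP kinases rose in 11 of 19 and fell in 4, the phosphatase genes DUSP5, DUSP1, DUSP16 and DUSP10 being 6.28-fold, 4.19-fold, 3.49-fold and 3.18-fold higher.

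Cell death genes moved both ways. Among 11 BH3-only genes, whose products start the mitochondrial pathway of apoptosis, 4 were higher and 4 lower. BMF stood at 6.06, 6.36 and 6.38 with APR and at 8.58, 8.72 and 8.58 with APR-AZA, 5.13-fold higher, and PMAIP1, also known as NOXA, was 3.58-fold higher. BNIP3 and BCL2L11 were 1.32-fold and 1.30-fold lower. The 4 lower members were 2 without APR replicate 1, APR-AZA replicate 1 or APR-AZA replicate 2. BNIP3 lost its call without the first array of either group, and BCL2L11 without APR-AZA replicate 2 or 3.

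Of 12 guardians and pore formers of the BCL2 family 4 were higher and 1 lower. The antiapoptotic BCL2 had log2 signals of 10.42, 10.27 and 10.33 with APR and 8.96, 8.86 and 8.96 with APR-AZA, 2.66-fold lower. Its relatives BCL2A1 and MCL1 were 3.24-fold and 1.55-fold higher. In the death receptor pathway 9 of 21 were higher and 5 lower, with the TRAIL receptor TNFRSF10B 3.04-fold higher beside its ligand TNFSF10, described above as lower. The 5 lower members were 3 without APR-AZA replicate 2.

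Of 32 p53 targets 13 rose and 5 fell, or 3 without APR-AZA replicate 2, with a median log2 change of 0.13. The largest increases were in SESN2, TP53INP1 (6.95-fold), a protein of autophagy and cell death, PMAIP1 and TNFRSF10B. Which pathway raised these genes was not tested. CDKN1A, the cell cycle inhibitor p21, stood at 5.30, 5.4 and 5.11 with APR and at 6.77, 6.65 and 6.52 with APR-AZA, 2.59-fold higher (adjusted p = 4.64e-07). MDM2, which marks p53 for breakdown, stood at 9.35, 9.09 and 9.06 and at 9.04, 8.97 and 8.96, a log2 difference of -0.17 ± 0.10 (SE) short of a call (adjusted p = 0.285).

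Of 25 stem and progenitor genes 12 were lower, 0 higher and 13 not called, with a median log2 change of -0.16, and 1 was higher without APR replicate 2. After MYB the largest decreases were in the transcription factors ZBTB16 (4.94-fold) and GFI1 (4.09-fold) and the stem cell factor receptor KIT (3.61-fold). FLT3, a receptor kinase of progenitors that is often mutated in this leukaemia, stood at 6.16, 6.05 and 5.83 with APR and at 4.88, 5.13 and 4.93 with APR-AZA, 2.04-fold lower (adjusted p = 0.000101). Genes of the neutrophil primary granule, which are made at the promyelocyte stage, fell in 9 of 15 and rose in 1. PRTN3 stood at 12.52, 12.57 and 12.68 and at 10.23, 10.23 and 10.14, and AZU1 was 3.54-fold lower. RNASE2, which is on this list but encodes a protein of eosinophil granules, was 3.98-fold lower. In FLT3 and PRTN3 the groups did not overlap.

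Monocyte and macrophage maturation genes rose in 13 of 34 members (38.2%) and fell in 6 (17.6%), against 9.45% and 11.2% of all genes. Their median log2 change was 0.15. C5AR1 stood at 4.40, 4.77 and 4.66 with APR and at 8.93, 8.85 and 8.69 with APR-AZA. S100P and ITGAX, given above, and CLEC7A, a receptor for fungal glucans (9.38-fold higher), had the other large increases. With C5AR1 they were the 4 called members that changed most, so none of the 6 lower members is among them. Among 23 cytokine receptors 7 were higher and 5 lower, with IL10RA and CSF2RA, the GM-CSF receptor chain, 4.0-fold and 2.71-fold higher and IL7R 2.74-fold lower.

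Of 23 immune checkpoint and surface receptors 6 were higher and 3 (13.0%) lower, the latter close to the 11.2% of all genes. HAVCR2, which encodes TIM-3, a surface protein of leukaemic stem cells and exhausted T cells, stood at 4.67, 4.83 and 4.91 with APR and at 7.97, 8.07 and 8.07 with APR-AZA, 9.41-fold higher. CD70 was 2.62-fold lower. Genes of antigen presentation were counted by class. For HLA class I 8 of 18 genes were higher and 1 lower, with HLA-E 1.89-fold and HLA-F 1.59-fold higher, in a family of similar genes whose probes may be shared. The 8 were 5 without APR replicate 1, and the 1 lower member was 0 without the third array of either group. For HLA class II 3 of 18 were higher and 6 lower, with HLA-DRA at 9.57, 9.55 and 9.62 against 8.68, 8.64 and 8.66, 1.90-fold lower, its transactivator CIITA 1.91-fold lower and the lysosomal thiol reductase IFI30 2.04-fold higher.

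Interferon-stimulated genes rose in 13 of 42 members, or 8 without APR-AZA replicate 2, and fell in 4. IRF1 was 3.73-fold, IFI35 2.19-fold and IFI6 2.19-fold higher, and CMPK2 2.20-fold lower. Cancer-testis and germline genes, which DNA methylation keeps silent in most tissues, had 2 of 31 (6.45%) higher and 1 (3.23%) lower. The shares of all genes were 9.45% and 11.2%, and counts this small cannot show that the group differed from them. TEX15 was 2.89-fold lower, and without APR-AZA replicate 1 there were 2 lower members. The antigens MAGEA1 and MAGEA4 stood at 0.64 ± 0.19 and 0.43 ± 0.12 (log2, SE, adjusted p = 0.029 and 0.0172), and both lost the call without the third array of either group, which left 0 higher. MAGEA1 also lost it without APR-AZA replicate 2 and without moderation of the variance. Globin and erythroid genes had 0 of 16 higher and 1 lower, the transferrin receptor TFRC (1.45-fold lower).

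The RNA of the enzyme that 5-azacytidine traps was not called. DNMT1, the maintenance DNA methyltransferase that the drug traps, stood at 10.32, 10.35 and 10.41 with APR and at 10.28, 10.24 and 10.28 with APR-AZA. The groups were apart by a narrow margin, and the log2 difference of -0.10 ± 0.07 (SE) was not called (adjusted p = 0.402). Arrays read the RNA, and the trapping acts on the protein, which was not measured. Of 19 genes of the DNA methylation machinery 3 were higher and 4 lower, with the methyl-CpG reader ZBTB38 1.49-fold higher and the demethylating enzyme TET2 1.32-fold higher. Without APR replicate 3 the 3 higher members were 1, and TET2 lost its call, as it did without APR-AZA replicate 2. Polycomb genes had 5 of 24 higher, led by PCGF3 at 1.58-fold higher, and 1 lower. That 1 was 0 without APR replicate 1 or APR-AZA replicate 1 or 3 and 2 without APR replicate 2.

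In the list of azacytidine uptake, activation and nucleotide pools 2 of 32 were higher and 10 lower. UCK2, the kinase that takes azacytidine into the ribonucleotide pool, stood at 10.49, 10.56 and 10.63 with APR and at 9.88, 9.79 and 9.80 with APR-AZA, 1.67-fold lower. DHODH, an enzyme of pyrimidine synthesis, and NME1, a nucleoside diphosphate kinase, were 2.13-fold and 2.06-fold lower, and the mitochondrial thymidine kinase TK2 was 1.89-fold higher. Among the RNA cytosine methyltransferases, which azacytidine in RNA can trap, 3 of 7 were lower and 0 higher, namely NOP2 (1.55-fold), TRDMT1 (1.46-fold) and NSUN2 (1.27-fold). TRDMT1 averaged 4.409 with APR and 3.865 with APR-AZA, below the array medians in both groups, and is not shown to lie above background.

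In G1/S and DNA replication 17 of 52 genes were lower and 6 (11.5%) higher, the latter a share close to the 9.45% of all genes. The inhibitor CDKN1C and the cyclin CCNE2 were 1.87-fold and 1.81-fold higher, and UNG, which removes uracil from DNA, was 1.79-fold lower. In G2/M and mitosis 7 of 38 were lower and 4 (10.5%) higher, again close to that share, with the checkpoint protein MAD2L1 1.83-fold lower and the phosphatase CDC25C 1.58-fold higher. DNA damage signalling and repair genes fell in 11 of 37 and rose in 1, a member that was not called without APR replicate 2 or 3 or APR-AZA replicate 1 or 3. The helicase WRN and the checkpoint kinase ATR were 1.70-fold and 1.61-fold lower.

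Replication-dependent histones rose in 11 of 26 members and fell in 1. H2BC8 stood at 5.16, 5.41 and 5.07 with APR and at 7.21, 7.28 and 7.38 with APR-AZA, 4.22-fold higher, and H3C1, H4C1 and H4C2 were 3.64-fold, 2.56-fold and 2.34-fold higher. Histone genes are near copies of each other and their probes may be shared. Small nucleolar RNA host genes had 6 of 21 higher and 6 lower, with SNHG4 3.84-fold lower and SNHG32 1.74-fold higher, and the 6 higher were 3 without the first array of either group or APR-AZA replicate 2.

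**Figure D3:**
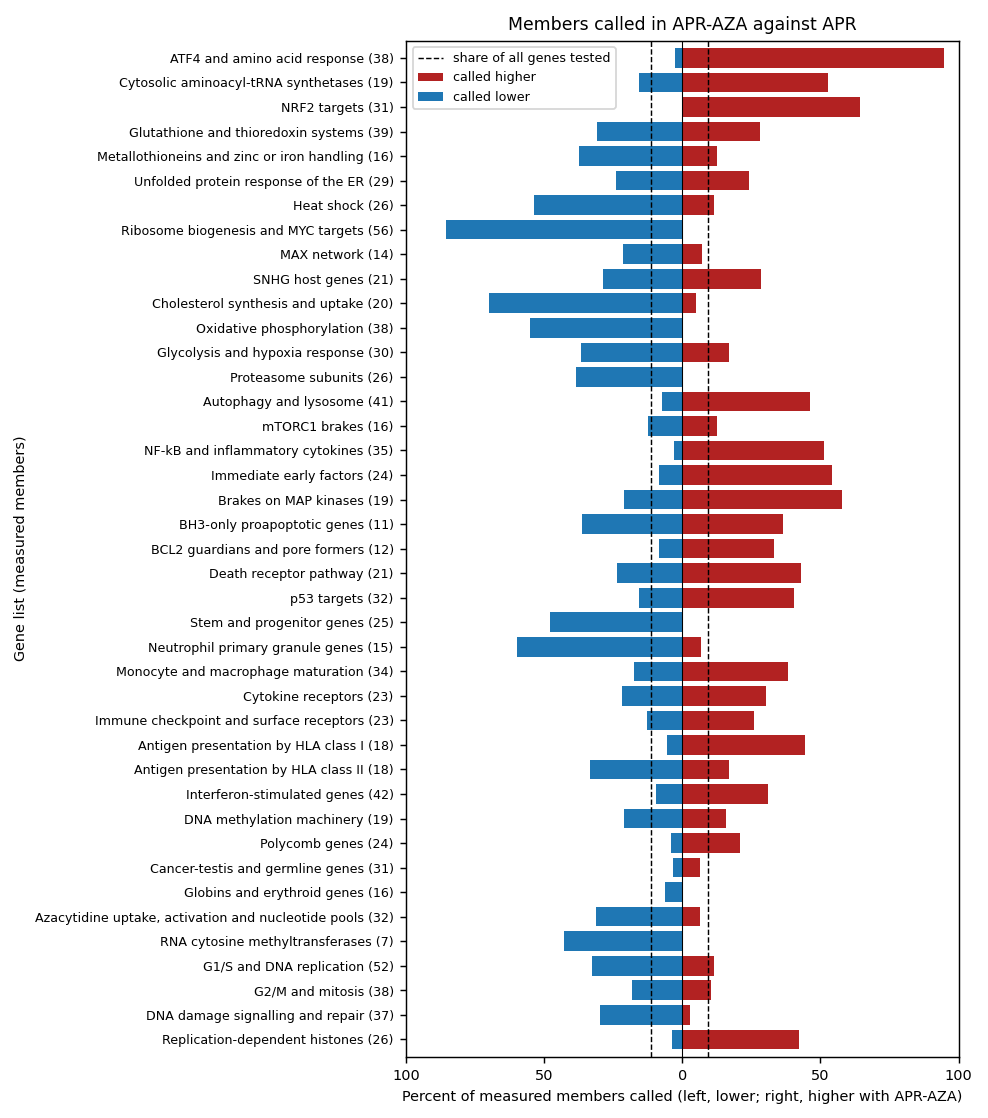
Percent of the measured members of each gene list (x axis) called higher (red, to the right) or lower (blue, to the left) in APR-AZA against APR, with the number of members in brackets. The dashed lines mark the 9.45% and 11.2% of all genes tested, and the ATF4 list (36 of 38 higher) and the ribosome biogenesis list (48 of 56 lower) reach farthest.

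The same drug was then followed without APR-246, in AZA against NT, on 6 arrays that the first comparison does not use. All 12 arrays were normalized together by the authors and share 1 estimate of the spread, so the 2 comparisons are not wholly independent. AZA against NT had 5878 genes called, 20.9% of those tested. Of the 5813 genes called with APR-246 present 82.0% were called in the same direction without it, as were 81.1% of the 5878 the other way round. These were 4767 genes, 2166 higher and 2601 lower, and 0 were called in opposite directions. Across genes the log2 changes correlated at Pearson's r = 0.905 and a Spearman coefficient of 0.694, a description over genes that are not independent of each other.

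The sizes were close as well. The 502 genes at least 2-fold higher with AZA alone had a median log2 change of 1.39 there and 1.31 in the presence of APR-246, and for the 406 genes at least 2-fold lower the medians were -1.24 and -1.18. These genes were chosen by their change in AZA against NT, which favours the larger value there. Of the 853 genes changed at least 2-fold with APR-246 present, 844 were called the same way without it, and the other 9 had the same sign. The counts of the gene lists were close too. Of the 38 members of the ATF4 list 36 were higher and 1 lower in AZA against NT, and of the 56 on the ribosome biogenesis list 52 were lower and 0 higher. CLDN1 changed by 6.15 with APR-246 and 6.20 without it on the log2 scale, DDIT4 by 5.14 and 4.79, MYB by -3.15 and -3.12 and BTLA by -3.80 and -4.25.

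**Figure D4:**
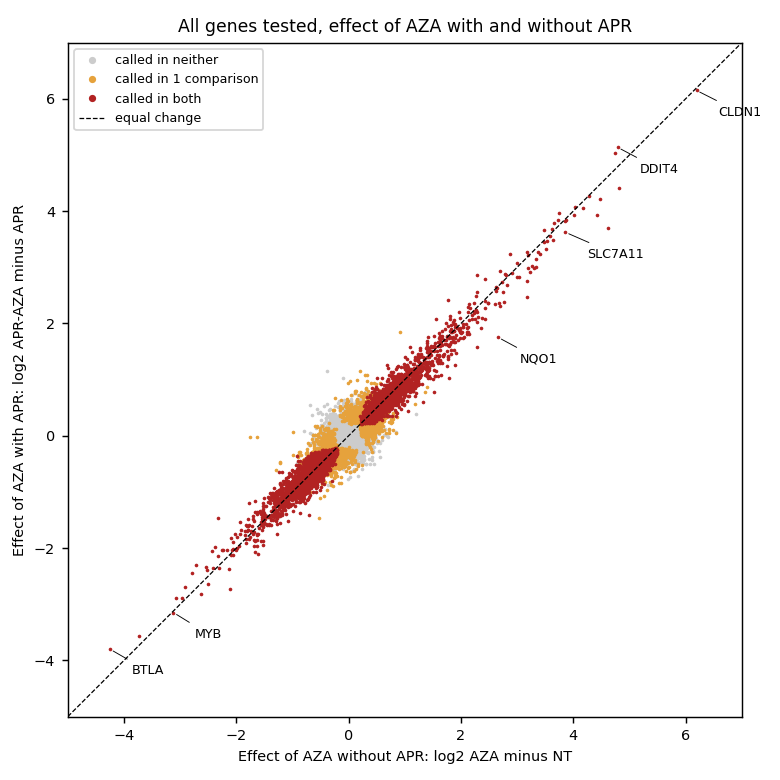
Log2 change on adding 5-azacytidine with APR-246 (APR-AZA minus APR, y axis) against the change without it (AZA minus NT, x axis), 1 point per gene for 28125 genes, coloured by whether the gene was called in both comparisons, in 1 or in neither. The points follow the dashed line of equal change, with 4767 genes called the same way in both and NQO1 below the line at 2.66 without and 1.75 with APR-246.

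Whether the effect of 5-azacytidine differed between cells with and without APR-246 was tested as the interaction, the change from APR to APR-AZA minus the change from NT to AZA. With limma 0 of 28125 genes were called (0% of those tested), 990 had an unadjusted p under 0.05 and 1406 would be reached by chance alone at that level. A p above the threshold does not show that effects are equal, so the interval of each difference was read. The 95% interval of the difference reached a median of 0.33 log2 units to either side of its estimate, and for 27430 genes (97.5%) it lay wholly within a 2-fold difference in either direction. Most genes were called in neither comparison, and for them such an interval says little about the effect of 5-azacytidine. Of the 1037 genes changed at least 2-fold in either comparison, 994 had an interval within those bounds and 43 did not.

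NQO1, a quinone reductase and NRF2 target, had the smallest p of the interaction. Its log2 signals were 7.97, 7.85 and 7.85 with NT, 8.73, 8.98 and 8.68 with APR, 10.63, 10.60 and 10.43 with AZA and 10.56, 10.49 and 10.60 with APR-AZA. The arrays with 5-azacytidine overlapped whether or not APR-246 was present, while the APR arrays all lay above the NT arrays. Adding 5-azacytidine raised NQO1 3.37-fold over APR (log2 1.75 ± 0.09, SE, adjusted p = 4.13e-08) and 6.34-fold over NT. The difference of these effects was -0.91 on the log2 scale (95% interval -1.20 to -0.62, unadjusted p = 1.42e-05) and was not called (adjusted p = 0.399), and over the alternatives run the smallest adjusted p of any gene was 0.0512.

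Of the genes followed in all 4 groups, the others gave no called difference between the effects either. CDKN1A changed by 1.37 with APR-246 and 1.04 without it on the log2 scale, and FLT3 by -1.03 and -1.39. For SLC7A11 the values were 3.62 and 3.86, for HMOX1 0.67 and 0.48, for MYC -1.12 and -1.26 and for DNMT1 -0.10 and -0.17. Over these and MDM2 the unadjusted p-values for the interaction, from limma, ran from 0.0326 for CDKN1A to 0.555 for MDM2. Of the genes with the largest changes, P3H2 had an unadjusted limma p of 0.0218, BTLA of 0.0307, CLDN1 of 0.83 and MYB of 0.856. Other named genes also had an unadjusted limma p under 0.05, among them HAVCR2 (0.0117), EGLN3 (0.016) and KRT19 (0.0194). EGLN3 changed by -1.405 with APR-246 and -0.708 without it on the log2 scale, and KRT19 by 0.988 and 0.141. None of these differences was called.

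**Figure D5:**
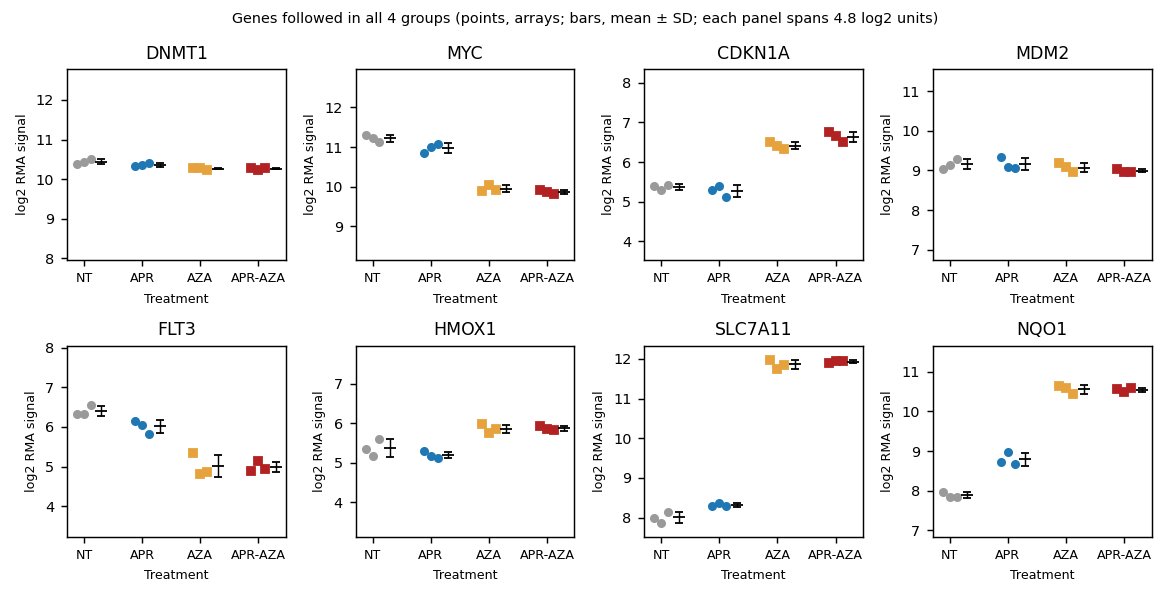
Log2 RMA signal (y axis) of 8 genes in the groups NT, APR, AZA and APR-AZA. Each point is 1 array and the bars are the mean ± SD of 3 arrays, and every panel spans the same range of log2 units, so that heights can be compared between panels. NQO1 is higher in APR than in NT and level between AZA and APR-AZA, while DNMT1 and MDM2 are nearly flat over the 4 groups.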

How the data were processed

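The 12 deposited arrays each hold 1 log2 value per gene, which the authors made with RMA, per the submitters' processing notes, where Partek is named too with no version of either. RMA sets the arrays to a common distribution, so that a common shift of the genes would not be seen, and it compresses low signals, which makes the fold changes of dim genes too small. Each labelling reaction took 250 ng of total RNA with a whole-transcript kit, per the labels' protocols. For the chip definition and its genome build, not given in the sources used here, no value was assumed. Array medians were 4.69 to 4.78, and no pair of arrays shared more than 0.0952% of its values. Arrays have no counting depth, and their number limits the precision.

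Of 29413 rows 28129 had 1 gene symbol in the platform annotation, 0 had several and 1284 had none. For 4 symbols on several rows the brightest row was kept, with no filter on signal. limma 3.58.1 in R 4.3.3 (lmFit, eBayes) fitted a mean for each of the 4 groups, with 8 residual degrees of freedom, and was tested on simulated data. The Benjamini-Hochberg adjustment ran over 28125 genes. Gene lists, 41 with 4 marker lists, held 1198 entries, of which 1095 were measured, and were described by counts and medians with no test of a list. Promoter windows and miRNA sequences came from RefSeq tables (GRCh38.p14), matched by gene ID. The comparison, lists and motifs were chosen with earlier results of these data known.

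Genes were named by a rule. Among called genes with groups that did not overlap it took the 15 that rose most and the 15 that fell most, and for each list described the 4 called members that changed most, or up to 2 members where fewer were called. DNMT1, MYC, CDKN1A, MDM2, FLT3, HMOX1, SLC7A11 and NQO1 were added in every comparison. The same rule would have taken 8 genes in each direction for the interaction, which had none called. For a list, not every gene of that rule is printed. Alternatives for the scaling were median centring and quantile normalization run again. Those for the model were a trended and robust variance, no moderation, array weights, a block for the replicate number and a fit without the groups not compared. The others were leaving out the dimmest 30% of genes, averaging repeated symbols and leaving out each array in turn.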

Additional observations from a re-analysis of the deposited data

How the results depend on the processing

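The count of 5813 genes called in APR-AZA against APR was 4921 to 5275 without 1 array and 5416 to 6419 over the other alternatives. For AZA against NT (5878) the counts were 5086 to 5409 and 5192 to 6098. Genes at least 2-fold changed (853) numbered 839 to 898 and 834 to 869, and genes called the same way in both comparisons (4767) 4285 to 4510 and 4267 to 4993. The interaction had 0 genes called in all 20 alternatives, with 667 to 1395 at an unadjusted p under 0.05. Median centring, which moved the median change by -0.026 on the log2 scale, gave 2348 genes higher and 3306 lower. Of the 184 genes chosen by the naming rule 172 kept their call status under every alternative and 12 did not, with 0 reversed, and 69 of 90 list counts stayed within 1.5 times. Same-numbered APR and APR-AZA arrays had deviations correlated at -0.0383 to 0.111, against -0.101 to 0.0797 for arrays of other numbers, so the numbers were not taken to pair the samples. With the replicate number as a block 5436 genes were called, 5342 of them shared with the fit without it, and of the genes named above MGA, MAGEA1, SREBF2 and CCL20 lost their calls. The 3 arrays a group and the compression of low signals limit what dim genes can show.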

Other observations

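Calls in APR-AZA against APR were not spread evenly over kinds of genes. Of 17811 protein-coding genes 12.3% were higher and 16.2% lower, of 7313 long noncoding RNAs 3.98% and 2.31%, and of 313 small nucleolar RNAs 12.5% and 9.27%. Of 16 small nuclear RNAs, which build the spliceosome and are read by probes that close copies may share, 8 were higher and 0 lower. Protein-coding genes with 0 to 3 CpG sites in the 300-base promoter were called higher in 5.27% and lower in 5.85%, those with 16 to 25 in 13.1% and 21.7%, and those with 41 to 69 in 16.3% and 20.4%. The share of genes with a signal high enough to be tested well was not compared between these classes.

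Of 1058 miRNA genes 23 (2.17%) were called higher and 15 (1.42%) lower, well below the 9.45% and 11.2% of all genes tested. A whole-transcript array reads the precursor or its host transcript, so these values do not give the level of the mature miRNA. For 35 of the 38 called genes RefSeq gave a mature sequence, 50 sequences in all with 50 distinct seeds, so that no seed was shared. The largest changes among these 35 genes were in MIR628, MIR4521, MIR4653 and MIR33B, chosen after their values were seen and printed from RefSeq (GRCh38.p14) 5′ to 3′ with the seed, bases 2 to 8, in capitals. MIR628 lies on the minus strand of chromosome 15 and MIR4521 on the plus strand of chromosome 17.
hsa-miR-628-5p: aUGCUGACauauuuacuagagg
hsa-miR-628-3p: uCUAGUAAgaguggcagucga
hsa-miR-4521: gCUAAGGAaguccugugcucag
hsa-miR-4653-5p: uCUCUGAGcaaggcuuaacacc
hsa-miR-33b-5p: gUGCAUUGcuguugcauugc
MIR628 had log2 signals of 3.86, 3.70 and 3.83 with APR and 5.48, 5.50 and 6.05 with APR-AZA, 3.68-fold higher (limma adjusted p = 5.07e-07). MIR4521 stood at 8.14, 8.12 and 7.85 and at 6.18, 6.04 and 6.24, 3.69-fold lower. In both the groups did not overlap. MIR4653 was 2.62-fold lower and MIR33B 2.23-fold lower. MIR3143, a called gene without a mature sequence, changed more than either, at 2.68-fold higher. MIR33B lies in an intron of SREBF1, a transcription factor of lipid synthesis, whose own row was higher by 0.36 ± 0.07 (log2, SE).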
